A study of Mus musculus with 9 samples.

Results

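Transcripts that tell subsets of midbrain dopamine (DA) neurons apart were followed across 3 Dot1l genotypes in 8 RNA-seq libraries. The set holds 10 genes chosen by name: Aldh1a1, Sox6, Otx2, Calb1, Slc17a6, Cck, Vip, Grp, Neurod6 and Tacr3. Each symbol matched 1 of the 47729 gene identifiers counted, and all 10 were measured well enough to be tested among 17988 genes. The rule names the genes by symbol and uses no threshold on a measured value.

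DA neurons of the midbrain are not uniform. Neurons of the substantia nigra, which project to the dorsal striatum and are lost in Parkinson's disease, are marked by the transcription factor Sox6 and, in their ventral tier, by the aldehyde dehydrogenase Aldh1a1. Neurons of the ventral tegmental area carry the transcription factor Otx2 or the calcium buffer Calb1 and are relatively spared. Smaller tegmental groups make neuropeptides such as Cck, Vip and Grp, express the transcription factor Neurod6 or the neurokinin receptor Tacr3, or co-release glutamate through the vesicular transporter Slc17a6.

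The cells were YFP-positive neurons sorted from midbrains of C57/Bl6 embryos at E15.75. In Dot1l(fl/fl) embryos this was shortly after the loss of H3K79me2, the mark that Dot1l writes on histone H3. The paper shows this loss in most DA neurons of Dot1l(fl/fl), with Dot1l(+/+) as the control that kept the mark. It also reports cells that still carried the mark, a minority lying most rostro-laterally and others in the most medial sections. Every embryo carried 1 Pitx3-Cre allele and a Rosa-lox-stop-lox-YFP reporter. The groups differed in Dot1l, with no floxed allele in Dot1l(+/+), while Dot1l(fl/+) had 1 and Dot1l(fl/fl) had 2. The controls thus shared the Cre, which sits in the Pitx3 locus and limits recombination and labelling to cells in which Pitx3 is active; Pitx3 is itself a known regulator of Aldh1a1 in nigral neurons. Each library was a pool of several embryos, and the p-values below measure the spread between such pools. Per the study's methods, each litter gave 1 embryo of each genotype, but no source used here ties the replicate numbers to litters, so the test is unpaired. There were 3 Dot1l(+/+), 3 Dot1l(fl/+) and 2 Dot1l(fl/fl) libraries, and Dot1l(fl/fl) 3 was not analysed here.

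Library totals lay between 13616922 and 43674673 counts, with both Dot1l(fl/fl) libraries the shallowest. Values are CPM, read counts brought to the same library size with TMM factors, and 3 counts, the limit that a count of 0 allows, stood for 0.0687 to 0.2203 CPM, counting error only. All 11 DA identity genes examined, among them Th, Slc6a3, Nr4a2 and Pitx3, were above 1 CPM in every library, with a summed level of 4554 to 6128 CPM. Dot1l lay between 84.6 and 105 CPM in Dot1l(+/+), between 65.6 and 76.2 CPM in Dot1l(fl/+), at 64.9 CPM in the library labelled Dot1l(fl/fl) 1 and at 99.1 CPM in the library labelled Dot1l(fl/fl) 2. The last value, above every Dot1l(fl/+) library, goes against its label at the level of the whole gene, of which only a part is floxed, so the differences of Dot1l(fl/fl) from Dot1l(+/+) that are described most closely are given below with and without each of these libraries. In sorted cells sequenced in bulk, fewer cells of a subset and less RNA per cell cannot be told apart.

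The promoters of Vip and Tacr3 are shown because these were the 2 subset markers that differed most across the libraries. They are RefSeq sequences on GRCm38.p6, from 250 bases before the gene start to 50 bases after it, both on the plus strand, at chr10:5638968-5639267 for Vip and chr3:134828757-134829056 for Tacr3. Capitals mark the TATA motif TATAAA and the core of the cAMP response element, TGACG on the strand shown or CGTCA where it lies on the other strand.
Vip: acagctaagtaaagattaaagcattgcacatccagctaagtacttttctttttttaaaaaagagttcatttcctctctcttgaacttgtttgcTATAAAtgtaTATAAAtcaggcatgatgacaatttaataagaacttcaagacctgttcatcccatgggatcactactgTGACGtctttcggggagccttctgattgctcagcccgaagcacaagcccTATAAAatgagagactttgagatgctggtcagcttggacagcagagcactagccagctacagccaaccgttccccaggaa
Tacr3: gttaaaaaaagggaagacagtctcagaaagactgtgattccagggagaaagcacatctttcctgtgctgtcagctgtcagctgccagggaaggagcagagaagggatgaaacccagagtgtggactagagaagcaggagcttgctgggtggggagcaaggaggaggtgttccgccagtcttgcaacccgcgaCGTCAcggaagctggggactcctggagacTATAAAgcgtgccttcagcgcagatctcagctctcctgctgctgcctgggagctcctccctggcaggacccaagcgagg
Vip held TATAAA from positions -157, -147 and -30 relative to the start and TGACG from position -79, while Tacr3 held TATAAA from position -29 and the response element core on the minus strand from position -58. No match overlapped another. Promoters were found for 8 of the 10 genes, all but Calb1 and Grp, and both strands were searched. Some genes have several promoters, Sox6 6 and Otx2 4, which made 18 for these 8 genes. TATAAA was present in 5 of the 18 (from Sox6, Otx2, Vip and Tacr3) and in 13.6% of 32851 promoters of the same length, and TGACG was present in 6 of the 18 and in 20.8% of all. TATAAA starting at positions -35 to -25, a window set after the matches were seen, was found in Vip, Tacr3 and 1.75% of all promoters. The site TAATCC, which Otx and Pitx proteins can bind, was present in 2 of the 18, from Sox6 and Otx2 (7.06% of all), and AAAGGTCA, the monomer site of Nr4a2, in 1, from Sox6 (1.51% of all). Such matches describe the sequence and do not show binding.

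**Figure D1:**
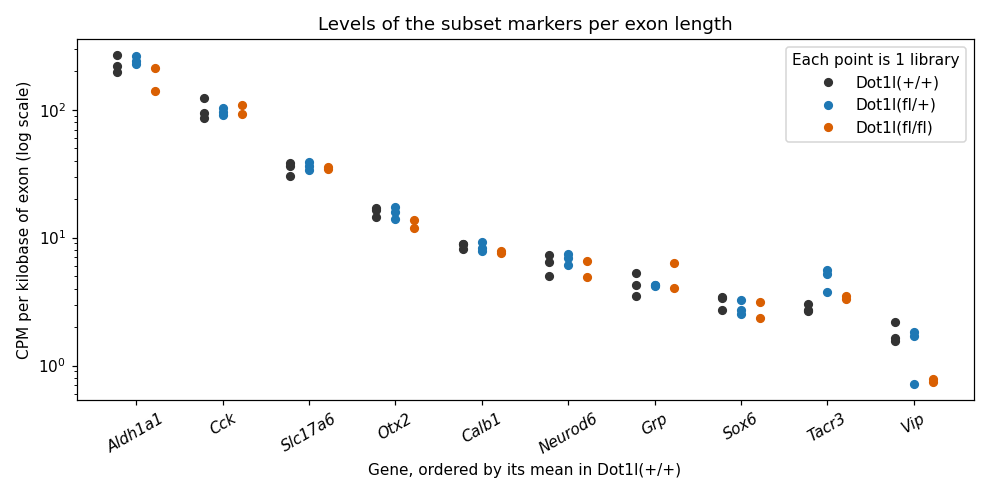
Level of each subset marker in CPM per kilobase of exon (vertical axis, log scale), with genes ordered by their Dot1l(+/+) mean and 1 point per library, coloured by genotype. Aldh1a1 stands at the top with a Dot1l(+/+) mean of 228 and Vip at the bottom with 1.80; the Dot1l(fl/+) points of Tacr3 lie above its other points.

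To compare levels between genes, CPM were divided by exon length in kilobases. In Dot1l(+/+), Aldh1a1 was the most abundant subset marker at 228 ± 34.9 CPM per kilobase (SD, n = 3), above 99.4% of the genes tested. The peptide precursor gene Cck followed at 101 ± 20 CPM per kilobase, above 97.9% of genes, and the glutamate transporter gene Slc17a6 at 34.9 ± 3.96, above 91.0%. Otx2 was at 16.0 ± 1.34 and Calb1 at 8.62 ± 0.40 CPM per kilobase. Neurod6 was at 6.25 ± 1.20, Grp at 4.36 ± 0.93, Sox6 at 3.18 ± 0.38, Tacr3 at 2.79 ± 0.19 and Vip at 1.80 ± 0.34 CPM per kilobase, the last above 38.1% of genes. Neighbours in this order had Dot1l(+/+) library ranges that did not overlap, except Neurod6 with Grp and Sox6 with Tacr3, which were not separated. Aldh1a1, named above as a nigral marker, and Cck, Slc17a6 and Otx2, named as tegmental, were thus each above at least 79.3% of the genes tested. These subset names are background, and which cells of the E15.75 pools carried each transcript was not tested. Sox6 has the longest exon sequence of the set, 14832 bases.

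Aldh1a1, the retinaldehyde dehydrogenase of ventral nigral neurons, lies on chromosome 19 (20492715 to 20643465, plus strand, GRCm38). It was at 1314, 975 and 1092 CPM in Dot1l(+/+) 1 to 3, at 1296, 1125 and 1178 CPM in Dot1l(fl/+) 1 to 3, while the libraries labelled Dot1l(fl/fl) 1 and 2 had 1039 and 688 CPM. The second Dot1l(fl/fl) library was the lowest of all 8, while the first lay inside the Dot1l(+/+) range and below every Dot1l(fl/+) library. The log2 fold change of Dot1l(fl/fl) against Dot1l(+/+) was -0.38 ± 0.13 (SE; 95% interval -0.65 to -0.12), a fold of 0.766, which did not pass edgeR's test (Benjamini-Hochberg adjusted p = 0.299, unadjusted 0.00574). With the replicate number fitted as a block it was -0.42 ± 0.09 (edgeR adjusted p = 0.126, unadjusted 8.96e-05). Each Dot1l(fl/fl) library was below the Dot1l(+/+) library of the same number. In the unpaired fit the value depended strongly on which Dot1l(fl/fl) library was kept. Without the library labelled Dot1l(fl/fl) 2 it was -0.12, and with the library labelled Dot1l(fl/fl) 1 left out it was -0.71 with an edgeR adjusted p of 0.00422, taking the lone remaining library to vary like the other groups. With no filter on low counts, over 23694 genes of which 0.447% were called, it was -0.39 with an edgeR adjusted p of 0.0271, and 1 of the 10 subset markers was then called. The library labelled Dot1l(fl/fl) 2 also had the lowest summed DA identity level, 4554 CPM against 5190 to 6128 CPM in the other 7. Its summed level of 5 blood markers was the highest, 33.4 CPM against 11.95 to 18.68 CPM. All 3 serotonergic markers were at 0 counts in that library, but markers of progenitors and microglia were present in every library. Over all libraries 5 progenitor markers summed to 47.45 to 86.52 CPM and 4 microglial markers to 76.84 to 112.5 CPM. In Dot1l(fl/fl) 2 these sums were 78.04 and 94.46 CPM. The part of these cells and of DA identity in the Aldh1a1 value was not tested. Against Dot1l(fl/+), the difference was -0.47 ± 0.13 (95% interval -0.74 to -0.21), with libraries that did not overlap and an edgeR adjusted p of 0.925 (unadjusted 0.00103). Dot1l(fl/+) and Dot1l(+/+) differed by 0.09 ± 0.11 on the log2 scale (edgeR adjusted p = 0.997). Aldh1a7, a near-identical relative on the same chromosome (20692953 to 20727562), was at 2.65 ± 0.86 CPM (SD, n = 3) in Dot1l(+/+), and how shared reads were assigned is not stated.

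Sox6, which sets the nigral fate, lies on chromosome 7 (115470872 to 116038796, minus strand). Its levels were 50.9, 40.6 and 50.1 CPM in Dot1l(+/+), 40.2, 48.6 and 37.6 CPM in Dot1l(fl/+), and 34.8 and 46.4 CPM in Dot1l(fl/fl). The libraries of all 3 genotypes overlapped. The log2 fold change was -0.22 ± 0.17 (95% interval -0.57 to 0.13) in Dot1l(fl/fl) and -0.16 ± 0.15 in Dot1l(fl/+), each against Dot1l(+/+), with edgeR adjusted p of 0.762 and 0.988. The first of these became -0.03 with only the library labelled Dot1l(fl/fl) 2 on that side and -0.44 with only the library labelled Dot1l(fl/fl) 1.

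Otx2, a transcription factor of tegmental neurons, lies on chromosome 14 (48657677 to 48673819, minus strand). It was at 69.2, 61.1 and 71.9 CPM in Dot1l(+/+), at 67.0, 73.3 and 59.4 CPM in Dot1l(fl/+), and at 58.2 and 50.2 CPM in Dot1l(fl/fl). Both Dot1l(fl/fl) libraries were below all 6 others. The difference from Dot1l(+/+) was -0.31 ± 0.14 on the log2 scale (95% interval -0.60 to -0.03; edgeR adjusted p = 0.487, unadjusted 0.0346), and it stayed between -0.43 and -0.21 when any single library was left out. Against Dot1l(fl/+) it was -0.30 ± 0.14 (edgeR adjusted p = 0.998, unadjusted 0.0454). Exons of Otx2 share 168 bases with Gm49154 on the same strand and 154 bases with Otx2os1 on the other, so a small part of these counts could belong to either.

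The log2 ratio of the nigral marker Sox6 to the tegmental marker Otx2 was described in each library. This ratio was -0.44, -0.59 and -0.52 in Dot1l(+/+) and -0.74, -0.59 and -0.66 in Dot1l(fl/+). The libraries labelled Dot1l(fl/fl) 1 and 2 had -0.74 and -0.11. The Dot1l(fl/fl) libraries held the highest ratio of all 8 and one of the 2 lowest, on opposite sides of the Dot1l(+/+) range. The log2 ratio of Aldh1a1 to Calb1 was 4.94, 4.62 and 4.67 in Dot1l(+/+), 4.85, 4.89 and 4.86 in Dot1l(fl/+), and 4.83 and 4.18 in Dot1l(fl/fl). Apart from the library labelled Dot1l(fl/fl) 2, which was lowest, all values lay within the Dot1l(+/+) range.

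Calb1, the calcium-binding protein calbindin (chromosome 4, 15881264 to 15908064, plus strand), had the smallest spread of the 10 genes. It was at 42.9, 39.5 and 42.8 CPM in Dot1l(+/+), at 44.9, 37.9 and 40.5 CPM in Dot1l(fl/+), and at 36.6 and 37.9 CPM in Dot1l(fl/fl). The Dot1l(fl/fl) libraries were the 2 lowest of the 8, by a small margin. The log2 fold change was -0.17 ± 0.15 (95% interval -0.48 to 0.15; edgeR adjusted p = 0.824) in Dot1l(fl/fl) and -0.02 ± 0.14 (edgeR adjusted p = 0.997) in Dot1l(fl/+), each against Dot1l(+/+). The spread of log2 CPM within genotypes was 0.09 (SD), and 7.07% of genes tested had a smaller one.

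Slc17a6, which loads glutamate into vesicles, lies on chromosome 7 (51622006 to 51671119, plus strand). It was at 164, 206 and 195 CPM in Dot1l(+/+), at 211, 197 and 181 CPM in Dot1l(fl/+), and at 186 and 192 CPM in Dot1l(fl/fl). The genotypes overlapped. The difference from Dot1l(+/+) was 0.00 ± 0.11 (95% interval -0.23 to 0.23) in Dot1l(fl/fl) and 0.06 ± 0.10 in Dot1l(fl/+), with edgeR adjusted p of 0.999 and 0.997. Of 8 markers of neighbouring glutamatergic neurons, 2 to 3 were below 1 CPM in each library and Emx1 was at 0 counts in all, and their summed level was 35.4 to 40.5 CPM in Dot1l(+/+), 25.6 to 48.8 in Dot1l(fl/+) and 26.2 to 39.0 in Dot1l(fl/fl). Slc17a6 is itself made by such neurons, and their part in its level was not tested.

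Cck, the precursor of cholecystokinin (chromosome 9, 121489824 to 121495694, minus strand), was at 122, 161 and 111 CPM in Dot1l(+/+), at 126, 134 and 118 CPM in Dot1l(fl/+), and at 143 and 122 CPM in Dot1l(fl/fl). Its highest and lowest libraries were both Dot1l(+/+). The log2 fold change was 0.01 ± 0.14 (95% interval -0.27 to 0.29) in Dot1l(fl/fl) and -0.06 ± 0.12 in Dot1l(fl/+), each against Dot1l(+/+), with edgeR adjusted p of 0.995 and 0.997.

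Vip, the precursor of vasoactive intestinal peptide (chromosome 10, 5639218 to 5647617, plus strand), differed most across the libraries, by 2.99-fold from the lowest to the highest. It was at 5.33, 5.58 and 7.47 CPM in Dot1l(+/+), at 2.45, 5.83 and 6.19 CPM in Dot1l(fl/+), and at 2.68 and 2.52 CPM in Dot1l(fl/fl). Both Dot1l(fl/fl) libraries were below every Dot1l(+/+) library, but Dot1l(fl/+) 1 was lower still. These levels came from 138 to 323 reads in Dot1l(+/+), 73 to 176 in Dot1l(fl/+), and 49 and 35 in Dot1l(fl/fl). The log2 fold change of Dot1l(fl/fl) against Dot1l(+/+) was -1.24 ± 0.43 (95% interval -2.13 to -0.35), a fold of 0.425, with an edgeR adjusted p of 0.331 (unadjusted 0.00854). It was between -1.33 and -1.07 when any library was left out, and it had the widest interval of the 10 genes. Dot1l(fl/+) differed from Dot1l(+/+) by -0.35 ± 0.36 (edgeR adjusted p = 0.995), and by -0.03 without Dot1l(fl/+) 1.

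Grp, the precursor of gastrin-releasing peptide, was at 7.87, 5.12 and 6.34 CPM in Dot1l(+/+), at 6.35, 6.15 and 6.29 CPM in Dot1l(fl/+), and at 9.29 and 5.98 CPM in Dot1l(fl/fl). The Dot1l(fl/+) libraries were nearly equal, and the Dot1l(fl/fl) libraries lay on either side of them. The difference of Dot1l(fl/fl) from Dot1l(+/+) was 0.25 ± 0.32 on the log2 scale (95% interval -0.41 to 0.91; edgeR adjusted p = 0.907), and its sign turned to -0.11 without the library labelled Dot1l(fl/fl) 1. Dot1l(fl/+) differed from Dot1l(+/+) by -0.04 ± 0.28 (edgeR adjusted p = 0.997). Vip and Grp together rested on 35 to 323 counts in a library.

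Neurod6, a basic helix-loop-helix transcription factor of a tegmental group (chromosome 6, 55677822 to 55681263, minus strand), was at 13.8, 10.7 and 15.84 CPM in Dot1l(+/+), at 14.9, 13.2 and 16.0 CPM in Dot1l(fl/+), and at 10.5 and 14.1 CPM in Dot1l(fl/fl). The genotypes overlapped. The log2 fold change was -0.13 ± 0.24 (95% interval -0.63 to 0.37; edgeR adjusted p = 0.948) in Dot1l(fl/fl) and 0.13 ± 0.21 (edgeR adjusted p = 0.997) in Dot1l(fl/+), each against Dot1l(+/+).

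Tacr3, the neurokinin receptor (chromosome 3, 134829007 to 134934579, plus strand), was the 1 gene of the set that set Dot1l(fl/+) apart. It was at 9.96, 11.3 and 10.2 CPM in Dot1l(+/+), at 19.6, 21.1 and 14.2 CPM in Dot1l(fl/+), and at 12.6 and 13.2 CPM in Dot1l(fl/fl). All 3 Dot1l(fl/+) libraries were above the other 5, and both Dot1l(fl/fl) libraries lay between them and Dot1l(+/+). Dot1l(fl/+) against Dot1l(+/+) gave 0.80 ± 0.21 on the log2 scale (95% interval 0.38 to 1.23), a fold of 1.74, which did not pass edgeR's test (adjusted p = 0.94, unadjusted 0.000688). The value lay between 0.69 and 0.96 when any library was left out. Dot1l(fl/fl) differed from Dot1l(+/+) by 0.29 ± 0.23 (95% interval -0.19 to 0.77; edgeR adjusted p = 0.774) and from Dot1l(fl/+) by -0.51 ± 0.23 (95% interval -0.99 to -0.02; edgeR adjusted p = 0.998, unadjusted 0.0408). By mean, the order of Tacr3 was Dot1l(+/+) at 10.5 ± 0.71, Dot1l(fl/fl) at 12.9 ± 0.43 and Dot1l(fl/+) at 18.3 ± 3.66 CPM (SD, n = 3, 2 and 3), which is not the order of the number of floxed alleles.

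**Figure D2:**
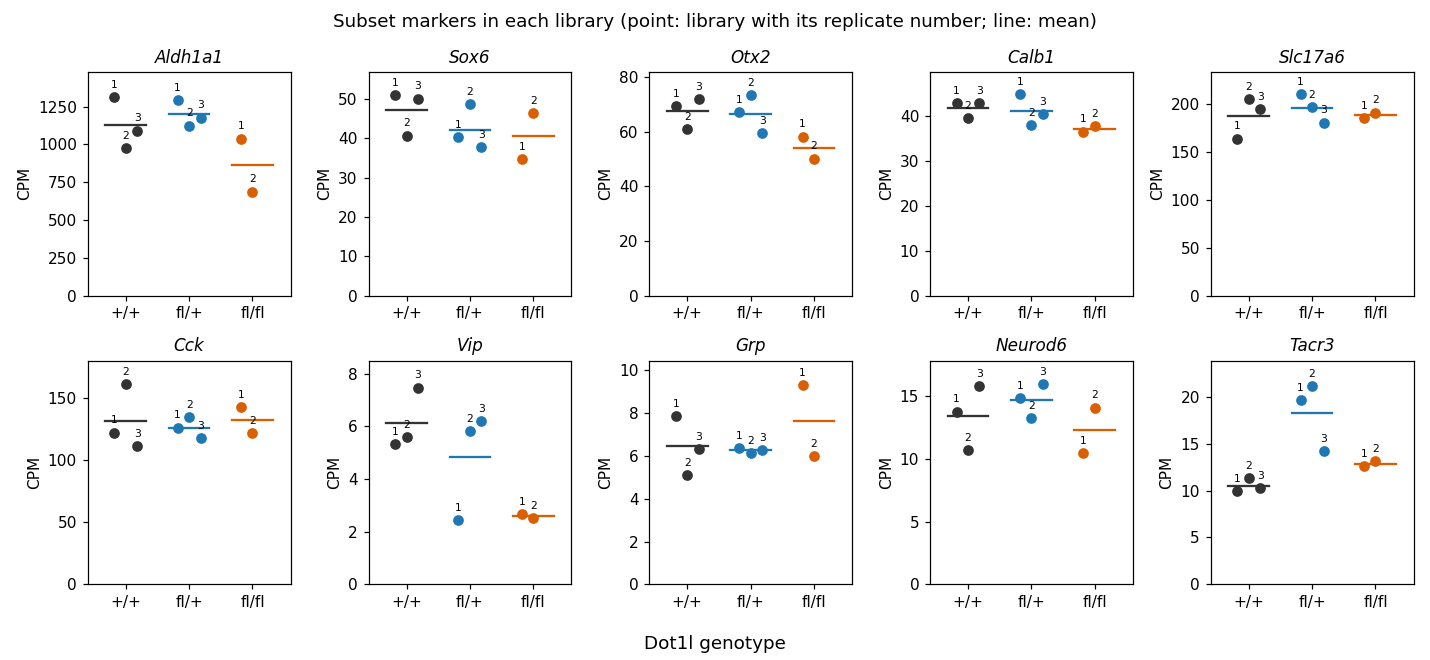
CPM of the 10 subset markers in each library (vertical axis from 0, points numbered by replicate) against Dot1l genotype, with a line at the mean of each genotype. Both Dot1l(fl/fl) points lie below the Dot1l(+/+) points for Otx2, Calb1 and Vip, and the Dot1l(fl/+) points of Tacr3, at 14.2 to 21.1 CPM, lie above all others.

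**Figure D3:**
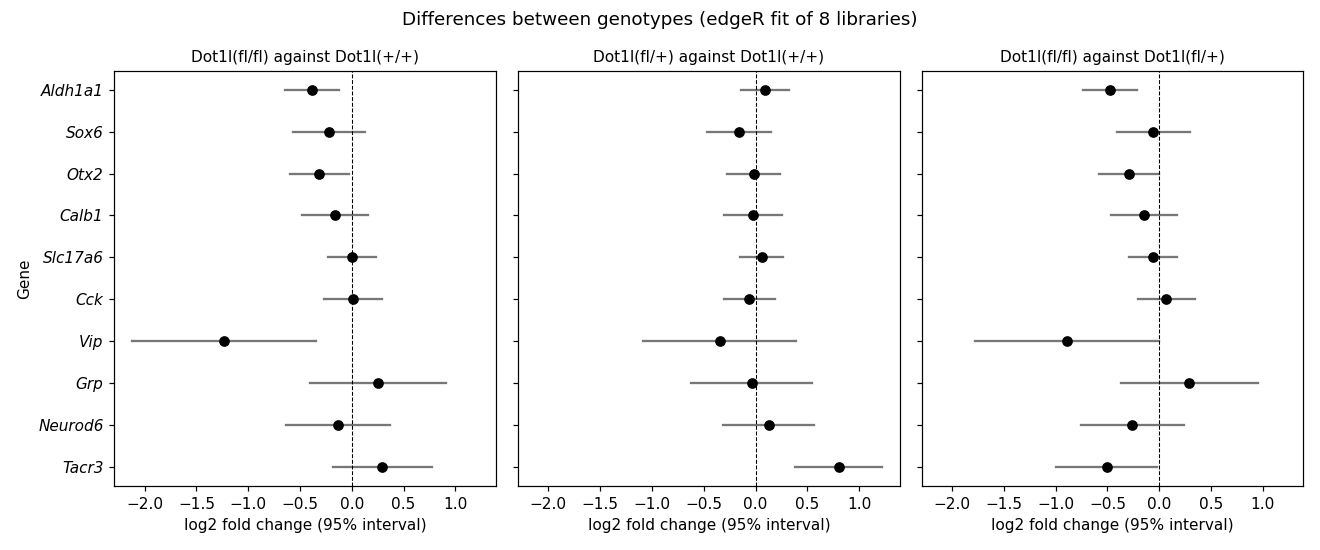
Log2 fold change of each subset marker (point) with its 95% interval (line) in the 3 comparisons of genotypes, from the edgeR fit of 8 libraries. Intervals leave out 0 for Aldh1a1, Otx2 and Vip in Dot1l(fl/fl) against Dot1l(+/+) and for Tacr3 alone in Dot1l(fl/+) against Dot1l(+/+).

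Counted over the set, the comparison of Dot1l(fl/fl) against Dot1l(+/+) gave 0 of 10 genes past edgeR's adjusted threshold, where 0% of all genes tested passed, and DESeq2 gave 0 of the 6 with an adjusted p (3.7% of the 5779 genes with one), with Vip, Grp, Neurod6 and Tacr3 left without one. At an unadjusted edgeR p under 0.05 there were 3 (Aldh1a1, Otx2 and Vip, all lower), where 9.27% of all genes passed, 5.03% lower and 4.24% higher. The libraries of both genotypes did not overlap for 4 genes (Otx2, Calb1 and Vip lower, Tacr3 higher), against 23.7% of all genes. In all, 6 genes of the set were lower and 4 higher, with 50.4% of all genes lower, and the median log2 fold change was -0.15 beside -0.003 over all genes.

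Dot1l(fl/+) against Dot1l(+/+) gave 0 of 10 by edgeR (0% of all genes) and 0 by DESeq2. Tacr3 was the 1 gene with an unadjusted edgeR p under 0.05 and the 1 gene whose libraries did not overlap, higher in both cases. Of all genes, 5.02% had such a p (2.16% higher, 2.86% lower) and 11.5% did not overlap (5.56% higher, 5.97% lower). Of the set 6 were lower, with 51% of all genes lower, and the median was -0.02 beside -0.007 over all genes. With no filter 0.0464% of all genes and 0 of the set were called. These comparisons share the Dot1l(+/+) libraries, so their values are not independent.

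Dot1l(fl/fl) against Dot1l(fl/+), which sets libraries labelled with 2 floxed alleles against those with 1, likewise gave 0 of 10 by edgeR (0% of all genes) and 0 by DESeq2. Here 4 genes had an unadjusted edgeR p under 0.05 (Aldh1a1, Otx2, Vip and Tacr3, all lower in Dot1l(fl/fl)), against 4.02% of all genes, 2.16% lower and 1.86% higher. The libraries did not overlap for Aldh1a1, Otx2, Calb1 and Tacr3, all lower, against 19.8% of all genes and 9.57% lower, and 8 of 10 were lower, with 49.8% of all genes lower. The median was -0.20 beside 0.001 over all genes. With no filter, Aldh1a1 was called here too (-0.48, edgeR adjusted p = 0.00321), 1 of 10 beside 0.0591% of all genes.

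**Figure D4:**
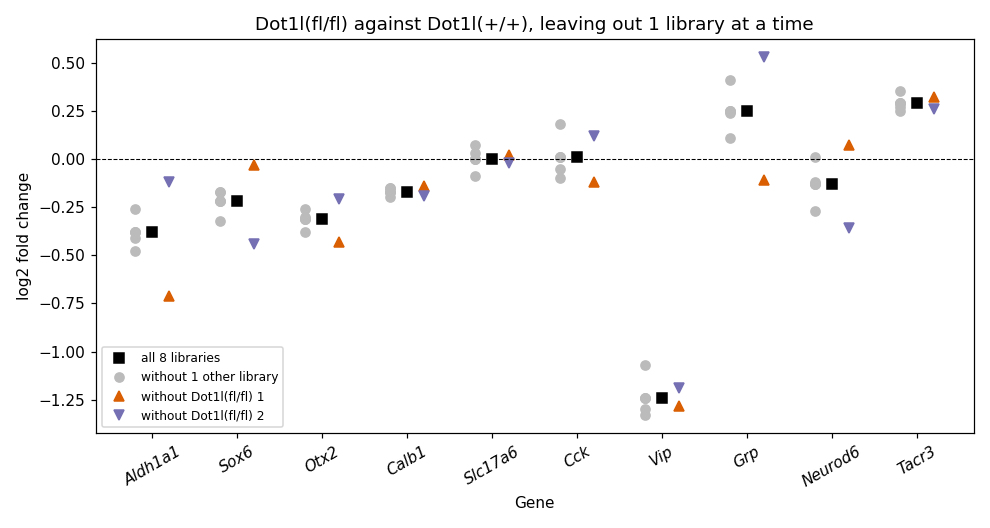
Log2 fold change of Dot1l(fl/fl) against Dot1l(+/+) for each subset marker (horizontal axis) with all 8 libraries (squares), without each of the 6 other libraries (grey circles) and without either Dot1l(fl/fl) library (triangles). The Aldh1a1 triangles stand at -0.71 and -0.12, while all Vip points lie at or below -1.07.

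Leaving out 1 library at a time showed how far the values of the unpaired fit depended on a single pool. For Dot1l(fl/fl) against Dot1l(+/+), the sign was kept in all 8 fits for Aldh1a1, Sox6, Otx2, Calb1, Vip and Tacr3, in 7 for Grp, in 6 for Slc17a6 and Neurod6, and in 5 for Cck. Calb1 stayed between -0.20 and -0.14 and Tacr3 between 0.25 and 0.35. For the 2 nigral markers different pools weighed most, since the library labelled Dot1l(fl/fl) 2 was the lowest of the 8 for Aldh1a1 and the library labelled Dot1l(fl/fl) 1 the lowest for Sox6.

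The spread within genotypes differed among the genes. Aldh1a1 had an SD of 0.24 on the log2 scale, larger than in 98.4% of the 500 genes nearest to it in level, and Cck one of 0.20, larger than in 93.0%. Vip had the largest SD, 0.49, and that was larger than in 63.0% of genes at its level. Sox6 was at 0.21, Otx2 at 0.14, Slc17a6 at 0.13, Grp at 0.28, Neurod6 at 0.24 and Tacr3 at 0.20, with a median of 0.27 over all genes tested. Seen by library, 7, 3 and 7 of the 10 genes were above their own mean over all libraries in Dot1l(+/+) 1 to 3, 6, 7 and 5 in Dot1l(fl/+), and 2 and 3 in Dot1l(fl/fl).

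The genes with the most similar pattern over the 8 libraries were sought by the root mean square difference of centred log2 CPM. For Otx2 these were Chd4 (0.05), Acly (0.06) and Unc13b (0.06), with a median of 0.23 over the 9952 genes compared. For Aldh1a1 they were Mpp3, Gm7389 and Syt17, at 0.10 to 0.11 with a median of 0.32, and for Sox6 Syt14, Zmym6 and Jmjd4, at 0.04 to 0.06 with a median of 0.25. Vip had no close partner, its nearest being Pdcd11 at 0.35, Amdhd2 at 0.37 and Wnt4 at 0.37, with a median of 0.63. Tacr3 was nearest to Clybl (0.15), Gltp (0.17) and Metap1d (0.17), with a median of 0.41. Calb1 was nearest to Vps53, Mgat5b and Ano8 (0.03 to 0.05), Slc17a6 to Msantd4, Ugcg and Insig2 (0.05 each), and Cck to Gm13127, Bysl and Gm9769 (0.04 to 0.07). Grp was nearest to Cdh22, Coasy and Ache (0.10 to 0.11) and Neurod6 to Xrn1, Thada and B3galnt2 (0.08 to 0.09). All genes share the same libraries and their depth, so this is a description of 8 points.

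Other genes used to mark the same subsets were read beside the set. Of 12 further nigral genes, 8 were lower and 4 higher in Dot1l(fl/fl) against Dot1l(+/+), with a median of -0.14, and 0 passed edgeR's adjusted threshold. The smallest p values were those of Bnc2, a zinc finger gene, at -0.44 ± 0.17 (edgeR adjusted p = 0.394), and of the chromatin organiser Satb1 at -0.28 ± 0.13 (edgeR adjusted p = 0.539). Of 13 further tegmental genes, 9 were lower and 4 higher with a median of -0.24, and again 0 passed. For both lists, the share of all genes that were lower was 50.4%. Calretinin (Calb2), a relative of Calb1, was at 83.2, 101 and 77.9 CPM in Dot1l(+/+), at 115, 102 and 110 CPM in Dot1l(fl/+), and at 136 and 103 CPM in Dot1l(fl/fl). Every library with a floxed allele was above all Dot1l(+/+) libraries, while Calb1 was lowest in Dot1l(fl/fl). The Calb2 difference was 0.45 ± 0.13 in Dot1l(fl/fl) (edgeR adjusted p = 0.266) and 0.32 ± 0.12 in Dot1l(fl/+) (edgeR adjusted p = 0.94). Slc32a1, the vesicular transporter of GABA, was at 108 to 113 CPM in Dot1l(+/+), 106 to 120 CPM in Dot1l(fl/+), and 156 and 129 CPM in Dot1l(fl/fl), a difference from Dot1l(+/+) of 0.37 ± 0.11 (edgeR adjusted p = 0.269). It is also made by GABAergic neurons, whose 6 markers, Slc32a1 included, summed to 204 to 225, 196 to 231, and 264 and 235 CPM in the same order, with Gata2 below 1 CPM throughout. The sum is mostly Slc32a1 and Gad2, and 4 of the 6 were lower in Dot1l(fl/fl) than in Dot1l(+/+), with a median of -0.25; their part was not tested. At an unadjusted edgeR p under 0.05, 0 nigral genes were higher and 1 lower, and 2 tegmental genes were higher and 4 lower. Over all genes the shares were 4.24% higher and 5.03% lower. The 2 higher tegmental genes were Calb2 and Slc32a1. The 4 lower were Nrp1 at -0.43 ± 0.13, Marcks at -0.26 ± 0.09, Efnb3 at -0.27 ± 0.10 and Lmx1a at -0.25 ± 0.12 (edgeR adjusted p of 0.269, 0.289, 0.349 and 0.512). Leaving out Dot1l(fl/fl) 1 or Dot1l(fl/fl) 2, in this order, gave 9 and 8 lower nigral genes (medians of -0.22 and -0.14) and 9 and 7 lower tegmental genes (medians of -0.16 and -0.09). Bnc2 then stood at -0.23 and -0.69, Satb1 at -0.21 and -0.34, Calb2 at 0.23 and 0.63, and Slc32a1 at 0.23 and 0.50. Calb2 passed the threshold in the fit without Dot1l(fl/fl) 2 (edgeR adjusted p = 0.0453). The medians of the nigral and tegmental genes were -0.08 and 0.03 for Dot1l(fl/+) against Dot1l(+/+). For Dot1l(fl/fl) against Dot1l(fl/+) they were -0.09 and -0.18, with 0 past the adjusted threshold of edgeR in either.

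The genes of DA identity itself were lower in Dot1l(fl/fl) than in Dot1l(+/+) in 10 of 11 cases, with 7 at an unadjusted edgeR p under 0.05, all lower, and a median of -0.28. Of all genes 50.4% were lower, 5.03% with such a p. The leading genes were the transcription factors En2, at -0.47 ± 0.09 (edgeR adjusted p = 0.114), and Nr4a2, at -0.40 ± 0.09 (edgeR adjusted p = 0.16). With all libraries, no gene of this list passed the adjusted threshold. The list was not uniform, with the dopamine transporter gene Slc6a3 at 0.13, Pitx3 at -0.01, Foxa2 at -0.14 and Lmx1b at -0.15 (edgeR adjusted p of 0.809, 0.992, 0.753 and 0.738). When Dot1l(fl/fl) 1 was left out, all 11 were lower (median -0.26). That fit kept, for Dot1l(fl/fl), only the library whose Dot1l level goes against its label. When Dot1l(fl/fl) 2 was left out, 9 were lower (median -0.18). The share of all genes that were lower is not given for these 2 fits. En2 was at -0.50 and -0.45 in these 2 fits, and Nr4a2 at -0.37 and -0.44.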

How the data were processed

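RNA of sorted DA neurons was sequenced in 8 libraries, grouped by the genotype in their titles. The files deposited by the authors hold raw counts: whole numbers of reads for every Ensembl gene in 1 library. Per the labels, bcl2fastq 2.17 and Trimmomatic 0.30 preceded mapping to GRCm38.p4, with a directional library kit; the aligner, the counter and its strand setting are not given in the sources used here. The authors also deposited 3 comparison tables made with DESeq2 1.10.1, which hold a mean normalised signal, log2 fold changes, standard errors, Wald scores and p-values. Their gene symbols were used and none of their values. Coordinates and exon lengths came from the GENCODE annotation of GRCm38, in which 99.1% of identifiers were found, and promoters from RefSeq.

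Counts were tested with edgeR 4.0.16 in R 4.3.3 (quasi-likelihood F test, TMM, filterByExpr, 3 genotypes in a single fit, no covariates), with Benjamini-Hochberg adjustment over 17988 genes and a threshold of 0.05. Library values on the log2 scale used a prior count of 2. The 10 subset markers and the lists of related genes were chosen with earlier results of these data known. The genes named were these 10, for each the 3 genes of nearest pattern with a mean of at least 10 CPM, the 2 genes of smallest p in Dot1l(fl/fl) against Dot1l(+/+) from each list, Dot1l and Aldh1a7; in the list of relatives of the subset markers these 2 are Calb2 and Otx1. Further genes of the lists and cell type markers (Th, Slc6a3, Pitx3, Foxa2, Lmx1b, Gad2, Gata2, Emx1, Tac1, Tac2, Nrp1, Marcks, Efnb3, Lmx1a, Vipr1, Nmbr, Crabp1, Aldh1a2, Stra6, Aldh1a3) were named after their values were seen. Libraries of 1 genotype differed in their counts by a chi-square per degree of freedom of 17.0 to 41.46, so none was taken for a copy of another. Alternatives were DESeq2 1.42.0, other size factors (RLE, upper quartile), other filters (none, or a mean count of 50), a fit of only the genotypes compared, a replicate block, spline offsets in length and GC (4 degrees of freedom), the block with these offsets, and leaving out each library; for the lists, leaving out each Dot1l(fl/fl) library was added after seeing the data. The scripts were tested on simulated counts. Intervals are at 95%.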

Additional observations from a re-analysis of the deposited data

How the results depend on the processing

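Under edgeR with all libraries, 0 genes and 0 subset markers were called in each comparison, and the counts that moved were these. In Dot1l(fl/fl) against Dot1l(+/+), 106 genes were called with no filter, 2 with a mean count of at least 50, 214 by DESeq2, and 0 to 75 when 1 library was left out (75 without Dot1l(+/+) 2, 50 without Dot1l(fl/fl) 2, 4 without Dot1l(fl/fl) 1). In Dot1l(fl/+) against Dot1l(+/+), 11 were called with no filter. For Dot1l(fl/fl) against Dot1l(fl/+), 14 were called with no filter, 1 by DESeq2, and 0 to 7 when 1 library was left out (7 without either Dot1l(fl/fl) library). The cause was not tested.

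Of the subset markers, Aldh1a1 alone was called under any alternative. In Dot1l(fl/fl) against Dot1l(+/+) this was 1 gene with no filter (-0.39, edgeR adjusted p = 0.0271) and 0 to 1 when 1 library was left out; in Dot1l(fl/fl) against Dot1l(fl/+) it was 1 with no filter (-0.48, edgeR adjusted p = 0.00321) and 0 to 1 when 1 library was left out, with -0.81 and an adjusted p of 0.00132 without Dot1l(fl/fl) 1. Over all its alternatives the adjusted p of Aldh1a1 ranged from 0.00422 to 0.806 in the first comparison and from 0.000518 to 1 in the second.

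The study took its embryos in sets of the 3 genotypes from the same litters, but no source used here says that a number marks a litter. Over all genes tested, deviations of libraries with the same number correlated at -0.031 to 0.045 (7 pairs). Those of other libraries correlated at -0.051 to 0.045, and 3 of 8 libraries correlated best with their own number. Deviations of the Dot1l(fl/fl) libraries from their shared mean mirror each other, so these correlations cannot decide whether the numbers are paired. For Aldh1a1, number 1 was highest and number 2 lowest in each genotype. The block lowered the SE of its difference between Dot1l(fl/fl) and Dot1l(+/+) from 0.13 to 0.09. With the replicate number as a block there were 6 genes for Dot1l(fl/fl) against Dot1l(+/+), and 4 for Dot1l(fl/fl) against Dot1l(fl/+), Aldh1a1 among the latter as 1 subset marker (-0.52, edgeR adjusted p = 0.0184). The block together with the length and GC offset called 17 and 9 genes, with Aldh1a1 as 1 subset marker in each (-0.47 and -0.56, edgeR adjusted p = 0.0064 and 0.000518).

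Signs turned for values near 0. In Dot1l(fl/fl) against Dot1l(+/+), Slc17a6 was at -0.002 with no filter, -0.01 under block or offset and -0.04 under block and offset, and Cck at -0.06, -0.07 and -0.17 under block, offset and block plus offset. In Dot1l(fl/+) against Dot1l(+/+), Calb1 was at 0.04 with the offset, with or without the block. Cck in Dot1l(fl/fl) against Dot1l(fl/+) was at -0.01 with the block and -0.10 with block and offset. Leaving out 1 library gave, in Dot1l(fl/fl) against Dot1l(+/+), -0.09 to 0.07 for Slc17a6, -0.12 to 0.18 for Cck, -0.11 to 0.53 for Grp and -0.36 to 0.07 for Neurod6. In Dot1l(fl/+) against Dot1l(+/+) it gave -0.004 to 0.22 for Aldh1a1, -0.09 to 0.06 for Otx2, -0.09 to 0.03 for Calb1, -0.03 to 0.13 for Slc17a6, -0.17 to 0.11 for Cck, -0.18 to 0.13 for Grp and -0.01 to 0.26 for Neurod6. Against Dot1l(fl/+), Dot1l(fl/fl) gave -0.28 to 0.13 for Sox6, -0.06 to 0.18 for Cck and -0.07 to 0.57 for Grp. The signs of Vip and Tacr3 were kept in every comparison under all alternatives run. With 1 Dot1l(fl/fl) library left, that library is assumed to vary like the other groups. Vip and Grp rested on 35 to 323 counts in a library, and what part depth has in their intervals was not tested.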

Other observations

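Aldh1a1 makes retinoic acid, and other genes of that pathway were read beside it. Of 18 retinoid genes 16 were tested. In Dot1l(fl/fl) against Dot1l(+/+) 10 were higher and 6 lower, with a median of 0.10 and 50.4% of all genes lower. None passed edgeR's adjusted threshold (0 higher and 1 lower at an unadjusted p under 0.05, beside 4.24% and 5.03% of all genes). Some had few reads, so their signs are uncertain. Crabp1, Aldh1a2 and Stra6, all higher, averaged 0.22, 0.38 and 0.75 CPM in Dot1l(+/+), with SE of 2.07, 1.57 and 1.31 for the log2 fold change. Aldh1a3, lower, averaged 0.50 CPM with an SE of 1.51. Rara, a retinoic acid receptor, was at 7.76, 9.42 and 9.21 CPM in Dot1l(+/+), at 7.63, 7.03 and 8.47 CPM in Dot1l(fl/+), and at 4.26 and 5.69 CPM in Dot1l(fl/fl). Both Dot1l(fl/fl) libraries were below all others, a difference from Dot1l(+/+) of -0.83 ± 0.30 (edgeR adjusted p = 0.354). Cyp26b1, which breaks retinoic acid down, was at 6.10, 11.7 and 9.32 CPM in Dot1l(+/+), at 8.97, 14.5 and 14.6 CPM in Dot1l(fl/+), and at 3.99 and 7.34 CPM in Dot1l(fl/fl). It was -0.69 ± 0.34 against Dot1l(+/+) (edgeR adjusted p = 0.541) and -1.17 ± 0.34 against Dot1l(fl/+) (edgeR adjusted p = 0.998, unadjusted 0.00217), the latter with libraries that did not overlap. In Dot1l(fl/+) against Dot1l(+/+) the median of the list was 0.01. Leaving out Dot1l(fl/fl) 1 or Dot1l(fl/fl) 2, in this order, gave medians of -0.10 and 0.00 against Dot1l(+/+), with 9 and 8 genes lower. Rara was then at -0.63 and -1.05, and Cyp26b1 at -0.31 and -1.18.

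Receptors and ligands that go with Cck, Vip, Grp and Tacr3 were read likewise. Of 13, 10 were tested, with 2 higher and 8 lower in Dot1l(fl/fl) against Dot1l(+/+), where 50.4% of all genes were lower. The median was -0.23 and 0 passed edgeR's adjusted threshold. At an unadjusted edgeR p under 0.05 there were 0 higher and 1 lower, beside 4.24% and 5.03% of all genes. The 2 higher, Vipr1 and Nmbr, were at 0.61 and 0.09 CPM on average in Dot1l(+/+), with SE of 1.86 and 1.90 for their log2 fold changes. Adcyap1r1, the receptor of the Vip relative PACAP, was at 282, 239 and 289 CPM in Dot1l(+/+), 257, 272 and 265 CPM in Dot1l(fl/+), and 239 and 196 CPM in Dot1l(fl/fl). Its difference from Dot1l(+/+) was -0.31 ± 0.11 (edgeR adjusted p = 0.334). Vipr2, a receptor for Vip, was at 1.295 CPM or less in every library and differed by -1.73 ± 1.64 (edgeR adjusted p = 0.832). With the same libraries left out, 8 and 7 genes were lower (medians of -0.38 and -0.42), with Adcyap1r1 at -0.47 and -0.18 and Vipr2 at -1.19 and -2.55. Tac2, the ligand of Tacr3, was at 0 counts in all 8 libraries, while Tac1 was at 20.9 CPM on average in Dot1l(+/+).

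Of 14 family relatives of the subset markers 10 were tested in Dot1l(fl/fl) against Dot1l(+/+), with 5 higher and 5 lower (50.4% of all genes lower). The median was -0.01 and 0 passed edgeR's adjusted threshold. At an unadjusted edgeR p under 0.05 there were 1 higher, Calb2, and 1 lower, Otx1, beside 4.24% and 5.03% of all genes. Otx1, the relative of Otx2, was at 13.2, 15.1 and 18.7 CPM in Dot1l(+/+), at 13.9, 18.03 and 13.5 CPM in Dot1l(fl/+), and at 11.5 and 9.57 CPM in Dot1l(fl/fl). Like Otx2, it was lowest in both Dot1l(fl/fl) libraries, with -0.57 ± 0.24 against Dot1l(+/+) (edgeR adjusted p = 0.456). Its difference was -0.71 and -0.45 with these libraries left out, and the median of the list was 0.08 and -0.04.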
